A study of Mus musculus with 16 samples.

Results

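The matrix metalloproteinases (Mmp), the secreted ADAMTS proteases (a disintegrin and metalloproteinase with thrombospondin motifs) and their tissue inhibitors (Timp) were followed across 4 genotypes of mouse mammary organoids. Members were the protein-coding genes whose symbols are Mmp, Adamts or Timp followed by a number, which gave 45 of 55487 gene identifiers, namely 22 Mmp, 19 Adamts and 4 Timp genes. The symbol Mmp1a also fits the pattern, but it is annotated as a polymorphic pseudogene and was not a member. RNA sequencing covered 3 WT samples, 4 with mutant PIK3CA, 4 with mutant HER2 and 5 with both mutations, called double mutant. All were grown in one medium with 50 ng/ml epidermal growth factor, 125 uM N-acetyl-cysteine, B27 supplement and medium conditioned with Rspo1 and Noggin. The series title names the changes as HER2 V777L and PIK3CA H1047R, and the labels of the samples give only the mutated gene. WT organoids came from normal breast and every mutant organoid from breast tumor, so genotype and tissue source cannot be told apart in a comparison with WT. How the mutant alleles were introduced, what drives their expression, and the age and number of the mice are not given in the sources used here. Nothing in the labels states that replicates came from separate animals or cultures, so the p-values measure the spread between these samples, which may be technical.

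Mmp enzymes are zinc proteases that cut collagens, basement membrane and other proteins of the extracellular matrix, and most are made as inactive precursors. Adamts enzymes trim procollagens, cut large proteoglycans such as versican and aggrecan, or act on microfibrils. Timp proteins block the active site, and Timp3 also inhibits several Adamts enzymes. In the mammary gland, epithelial cells, fibroblasts and macrophages all make enzymes of these families, which take part in duct branching and in involution after lactation.

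Total counts ranged from 45545182 to 64168308 per library. Erbb2, the mouse gene of HER2, was at 145 to 171 CPM (counts scaled to a common library size) in WT, 149 to 188 in PIK3CA mutant, 2696 to 4632 in HER2 mutant and 1499 to 2751 in double mutant libraries, so every library labelled with mutant HER2 was above every other. Pik3ca was at 75.9 to 85.7 CPM in WT and 91.6 to 111 in PIK3CA mutant libraries, and its level does not test a point mutation. Luminal epithelial markers (6 genes) summed to 2113 to 2326 CPM in WT, 3120 to 3702 in PIK3CA mutant, 2004 to 3007 in HER2 mutant and 2895 to 5033 in double mutant libraries. Basal and myoepithelial markers (8 genes) summed to 512 to 1051 CPM in WT, 521 to 1388 in PIK3CA mutant, 263 to 973 in HER2 mutant and 563 to 1038 in double mutant libraries, and 3 of the 8 were lower than WT in HER2 mutant organoids. Of the tested pericyte and endothelial markers, 3 of 3 and 2 of 3 were lower than WT in double mutant organoids. Macrophage markers (12 genes) summed to 552 to 3437 CPM in WT, against 14.7 to 37.5 in PIK3CA mutant, 9.56 to 223 in HER2 mutant and 12.9 to 67.9 in double mutant libraries. Fibroblast markers (10 genes) summed to 369 to 1977 CPM in WT, 68.7 to 496 in PIK3CA mutant, 36.0 to 651 in HER2 mutant and 28.0 to 61.8 in double mutant libraries. Among them, Dpt was at 0 in all 5 double mutant libraries, and Col3a1 and Lum were at 0 in some. No macrophage marker was at 0 in all libraries of a genotype. The samples are bulk RNA, so fewer cells of a type and less RNA per cell cannot be told apart. HER2 mutant replicate 1 and double mutant replicates 2 and 3 stood apart from their groups, for example in Adamts1, and the counts without these 3 libraries follow those with them.

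Of the 45 members, 40 passed the filter on low counts and were tested. The other 5 had at most 14 reads in any library (Adamts16, with 4 for Adamts19, 4 for Mmp1b, 2 for Mmp20 and 9 for Mmp7). With edgeR's quasi-likelihood test and an adjusted p under 0.05, 0 members were higher and 10 lower in PIK3CA mutant than in WT organoids, where 4.52% of all 24252 tested genes passed and 3.03% were lower. HER2 mutant organoids had 2 members higher and 11 lower than WT, against 10.4% of all genes (4.75% higher and 5.63% lower). Double mutant organoids had 2 members higher and 14 lower, against 11.8% of all genes (5.03% higher and 6.72% lower). Groups did not overlap in 18, 13 and 19 of the 40 members, against 29.5%, 22.2% and 23% of all genes. The median log2 fold change of the tested members was -0.57, -0.32 and -0.84 in these 3 comparisons, and that of all genes -0.03, 0.03 and 0.01. The 3 comparisons share the WT libraries. Without the 3 libraries that stood apart, 12, 10 and 16 members passed. Without WT replicate 3, the counts of members passing were 5, 6 and 10, and the HER2 mutant count was 8 without WT replicate 1 or WT replicate 2. In fits of only the 2 genotypes compared, 17, 1 (Adamts7) and 18 members passed. For these and later refits the share of all genes passing is not given, so a change in count may not be particular to the members.

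In all, 9 members were lower than WT in each mutant genotype: Mmp2, Mmp8, Mmp11, Mmp13, Mmp19, Mmp27, Timp2, Adamts2 and Adamts17. Of all 24252 tested genes, 1.91% were lower in each of these comparisons, which share the WT libraries. Mmp8 and Mmp27 would not have passed the filter on low counts without the WT libraries, so their place among the 9 is not independent of it. The members that passed as higher in at least 1 mutant genotype were 3 Adamts genes, Adamts3, Adamts7 and Adamts9. No Mmp or Timp gene passed as higher in a mutant by edgeR, while DESeq2 also called Mmp16 and Mmp25 in HER2 mutant and Mmp25 and Mmp28 in double mutant organoids. Mmp25 passed the filter only through libraries with mutant HER2, so its calls are not independent of the filter. It had 3, 0 and 5 reads in WT and 98, 4, 15 and 11 in HER2 mutant libraries. A further 23 of the 40 tested members passed in none of the 7 comparisons made. The shares of all genes higher in at least 1 mutant genotype, or passing in none of the 7, are not given. These counts are therefore not set against all genes.

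**Figure D1:**
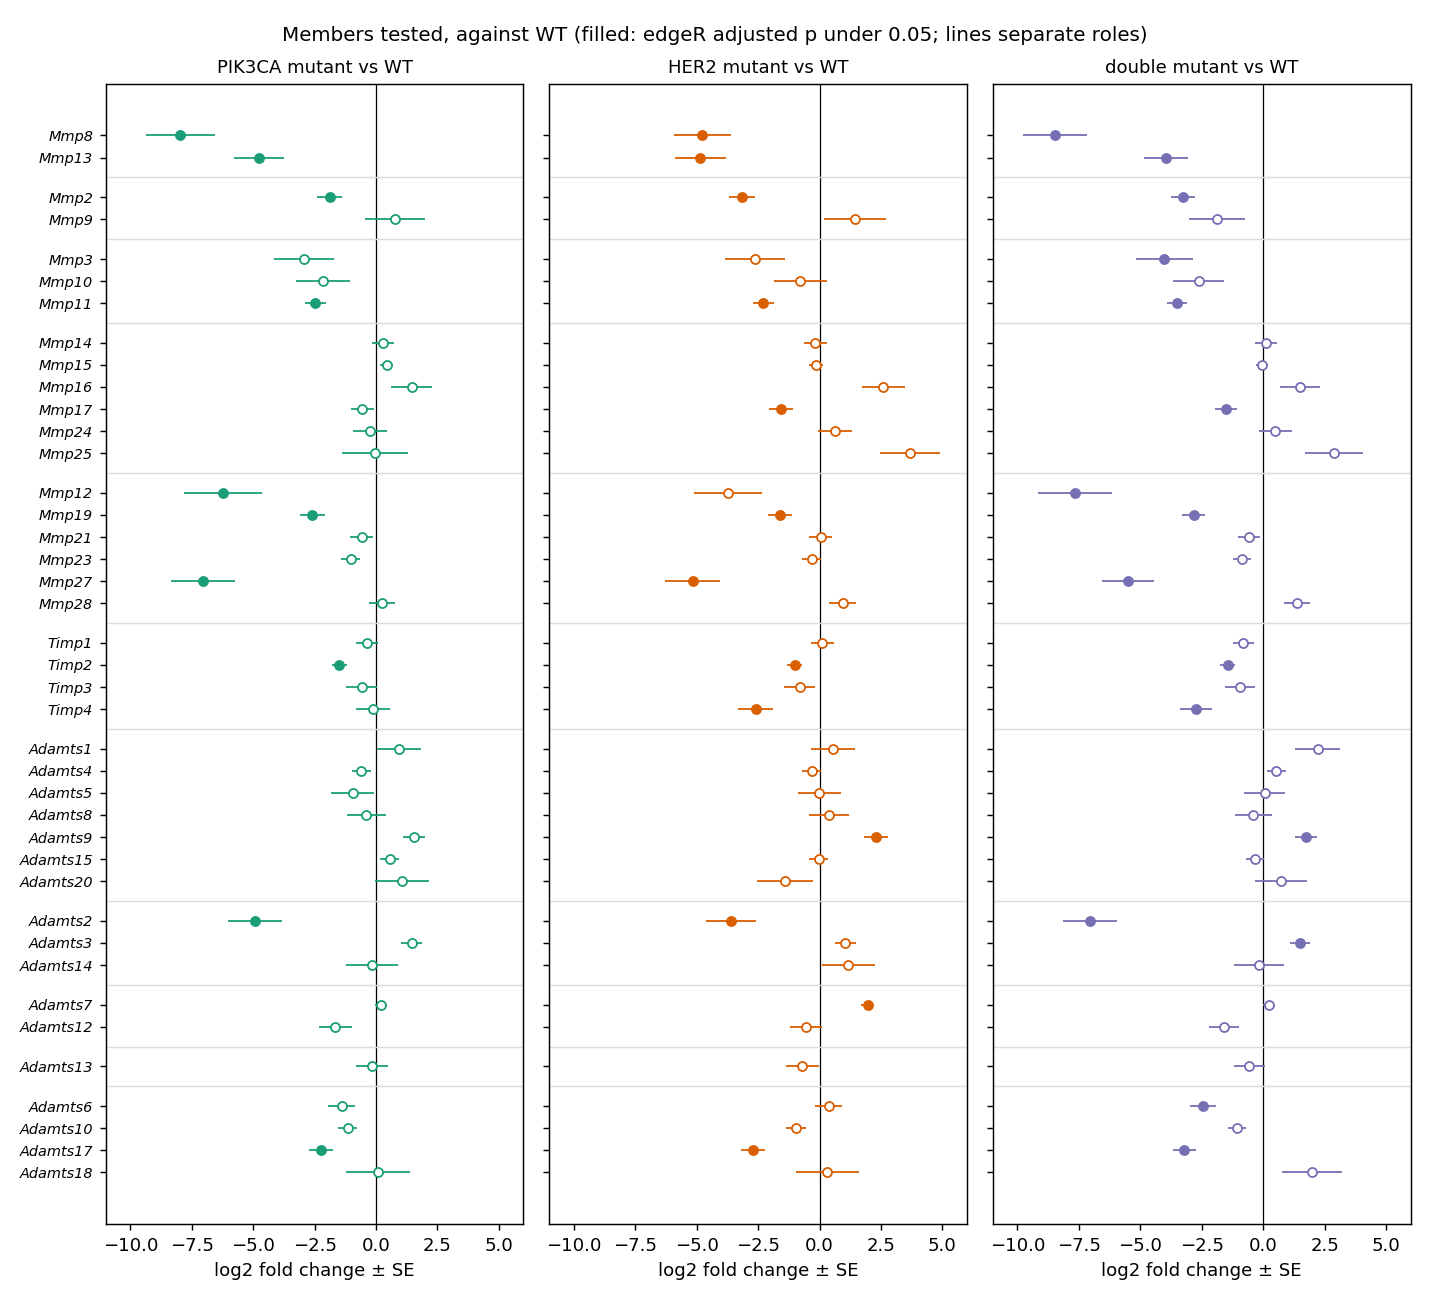
Log2 fold change against WT (x axis, with its standard error) for the 40 tested members (y axis) in PIK3CA mutant, HER2 mutant and double mutant organoids. Filled points passed an adjusted p under 0.05, and most of them lie to the left of 0, with Adamts3, Adamts7 and Adamts9 to the right.

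A run of 9 members lies on chromosome 9 from 7272514 to 7699585 (GRCm38), in the order Mmp13, Mmp12, Mmp1b, Mmp3, Mmp10, Mmp8, Mmp27, Mmp20 and Mmp7. Of the 9, 6 were tested and 5 were lower than WT in at least 1 mutant genotype. Among the 5, Mmp8 and Mmp27 passed the filter on low counts only through the WT libraries, so this count is not independent of the filter. Of all tested genes, 3.03%, 5.63% and 6.72% were lower in PIK3CA mutant, HER2 mutant and double mutant organoids. The share lower in at least 1 of them is not given, so the 5 are not set against all genes. The bases before the start of the 6 tested genes are shown as a description of these neighbours. They were read from RefSeq promoters of build GRCm38.p6, each on the plus strand and ending at the base before the start. Capitals mark a match to TGANTCA, where N is any base. This is a looser form of the AP-1 motif, and the pattern is its own reverse complement.
Mmp13, chr9:7272404-7272513: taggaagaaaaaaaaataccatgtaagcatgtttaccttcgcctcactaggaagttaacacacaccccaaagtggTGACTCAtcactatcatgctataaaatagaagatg
Mmp12, chr9:7347264-7347373: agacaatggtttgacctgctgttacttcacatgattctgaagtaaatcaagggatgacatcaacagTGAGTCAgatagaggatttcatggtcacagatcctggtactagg
Mmp3, chr9:7445712-7445821: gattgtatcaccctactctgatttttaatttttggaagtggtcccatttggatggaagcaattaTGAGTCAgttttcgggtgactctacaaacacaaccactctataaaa
Mmp10, chr9:7502232-7502341: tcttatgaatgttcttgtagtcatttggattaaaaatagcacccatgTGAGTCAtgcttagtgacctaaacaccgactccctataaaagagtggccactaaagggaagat
Mmp8, chr9:7558319-7558428: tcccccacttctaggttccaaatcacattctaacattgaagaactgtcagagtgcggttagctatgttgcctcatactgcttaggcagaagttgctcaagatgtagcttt
Mmp27, chr9:7571286-7571395: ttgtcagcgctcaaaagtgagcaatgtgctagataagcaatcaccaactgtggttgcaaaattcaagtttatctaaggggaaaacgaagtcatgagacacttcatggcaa

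The motif begins 35 bases before the start in Mmp13, 44 in Mmp12, 46 in Mmp3 and 63 in Mmp10. RefSeq lists a pair of starts for Mmp12, and the stretch shown precedes the downstream one, inside the annotated gene. It was chosen because it holds the match, and the window of the upstream start (chr9:7344147-7344446) held 0. Windows from 250 bases before to 50 after the start held the motif in 7 of the 9 chromosome 9 genes and in 0 of the 22 other members found in the promoter table. A gene was counted if any of its windows held the motif, and Mmp7, like Mmp12, also has a window with 0. The match in Mmp20 was TGAATCA, with A in the middle where the other matches had G or C. It was counted because the pattern allows any base there. Among all 27025 genes of that table, 8.97% held a match to TGANTCA. Mmp8 and Mmp27 have no match in their windows. A match is a description of the sequence and not a bound site, and promoters of 14 members were not in the table.

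Both collagenases that passed the filter, Mmp13 and Mmp8, were lower than WT in all 3 mutant genotypes. Mmp8 passed the filter only through the WT libraries, so its result is not independent of the filter. Mmp13, the main interstitial collagenase of the mouse, was at 7.97, 122 and 153 CPM in WT, 4.13, 5.70, 0.509 and 3.55 in PIK3CA mutant, 1.11, 9.33, 1.13 and 1.45 in HER2 mutant and 7.59, 1.30, 9.66, 6.02 and 5.79 in double mutant libraries. WT replicate 1 lay far below the other WT libraries, and 1 HER2 mutant and 1 double mutant library exceeded it. The log2 fold change from WT was -4.76 (SE 1.02, adjusted p = 0.0129) in PIK3CA mutant, -4.85 (SE 1.03, adjusted p = 0.00877) in HER2 mutant and -3.95 (SE 0.90, adjusted p = 0.00972) in double mutant organoids. Without WT replicate 3, the PIK3CA mutant and double mutant differences no longer passed, and without HER2 mutant replicate 2 the HER2 mutant difference was -6.25.

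Mmp8, the collagenase known from neutrophils, was at 7.25, 9.27 and 42.0 CPM in WT. Its levels were 0.111, 0.0207, 0.133 and 0.0357 CPM in PIK3CA mutant, 0.113, 2.62, 0.0223 and 0.0819 in HER2 mutant and 0.160, 0.0420, 0, 0 and 0.0583 in double mutant libraries. No mutant library reached the lowest WT library. Since Mmp8 passed the filter on low counts only through WT, the adjusted p-values and intervals that follow are not independent of it. The fall was -7.97 in log2 (adjusted p = 0.00337) in PIK3CA mutant, -4.77 (adjusted p = 0.0183) in HER2 mutant and -8.46 (adjusted p = 0.000739) in double mutant organoids. In pooled reads, scaled for library size, WT exceeded the mutants 270-fold, 27.4-fold and 378-fold, with 95% intervals, for counting error only, of 166 to 472, 23.3 to 32.6 and 225 to 692. HER2 mutant replicate 2 held most of the HER2 mutant reads, and without it the HER2 mutant difference was -8.00. Without WT replicate 3 the differences were -6.74, -3.53 and -7.22 in PIK3CA, HER2 and double mutant, and that of the HER2 mutant did not pass. Without double mutant replicate 1 that of the double mutant was -9.50. The 6 neutrophil markers summed to only 0.700 to 1.71 CPM in WT, where Ly6g was at 0 in all libraries. Their sums were 0.207 to 0.269 CPM in PIK3CA mutant, 0.154 to 1.70 in HER2 mutant and 0.117 to 0.550 in double mutant libraries. Of the 6, 2 passed the filter, and 1, 0 and 1 of them were lower than WT in the same 3 genotypes. Their part in the fall of Mmp8 was not tested.

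Mmp12, macrophage elastase, was the least variable of these genes in WT, at 115, 112 and 126 CPM. It was at 0.477, 0, 4.52 and 1.34 CPM in PIK3CA mutant, 10.6, 21.8, 0 and 3.17 in HER2 mutant and 0.213, 0, 0, 0.739 and 1.94 in double mutant libraries. Every mutant library lay below every WT library. Mmp12 was lower than WT in double mutant (log2 fold change -7.65, SE 1.52, adjusted p = 0.00408) and PIK3CA mutant organoids (-6.23, SE 1.57, adjusted p = 0.032), and the HER2 mutant difference of -3.72 (SE 1.40, adjusted p = 0.103) did not pass. In PIK3CA mutant organoids, 6 of 7 fits that left out 1 library lost the call, and the remaining fit, without PIK3CA mutant replicate 3, gave -7.58. The double mutant difference was -8.90 without double mutant replicate 5 and -6.94 without the 3 libraries that stood apart. Of 12 macrophage markers, 11, 8 and 11 were also lower than WT in PIK3CA mutant, HER2 mutant and double mutant organoids. Within WT their sums were 1513, 552 and 3437 CPM, a wider spread than that of Mmp12. In HER2 mutant replicates 1 to 4 the sums were 223, 96.3, 35.6 and 9.56 CPM, in another order than Mmp12. The part of these markers in the difference was not tested. Mmp12 also overlaps Mmp1b on the opposite strand, but Mmp1b had at most 4 reads.

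Mmp27, a low-level secreted member, had 137, 22 and 223 reads in WT libraries. There were 1, 0, 2 and 0 reads in PIK3CA mutant, 12, 0, 0 and 0 in HER2 mutant and 2, 1, 7, 0 and 2 in double mutant libraries. Scaled for library size, WT exceeded PIK3CA mutant organoids 162-fold (95% interval 55.0 to 788), HER2 mutant organoids 37.8-fold (21.4 to 73.9) and double mutant organoids 49.6-fold (28.1 to 96.9). These intervals cover counting error only and not the spread between libraries, which was wide in WT, and all HER2 mutant reads came from replicate 1. In the fit across libraries the adjusted p was 0.00504, 0.0102 and 0.00318. Mmp27 passed the filter on low counts only through the WT libraries, so these values and the intervals are not independent of it. Without WT replicate 3 the log2 differences went from -7.04, -5.16 and -5.49 to -6.41, -4.55 and -4.87, and that of the HER2 mutant did not pass. The PIK3CA mutant difference was -8.05 without PIK3CA mutant replicate 3 and the double mutant one -6.38 without double mutant replicate 3.

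**Figure D2:**
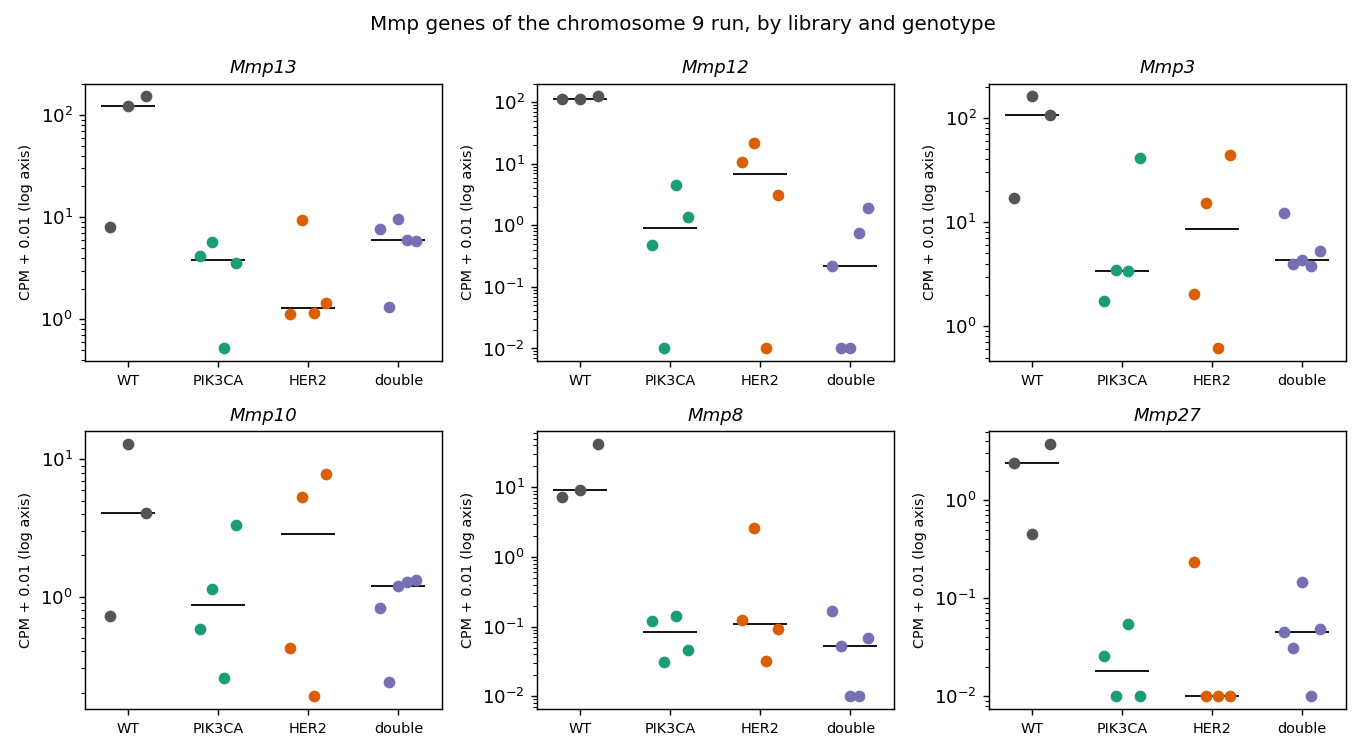
CPM plus 0.01 on a log axis for Mmp13, Mmp12, Mmp3, Mmp10, Mmp8 and Mmp27 in each library (points) by genotype, with the median as a line. WT libraries sit highest for Mmp12, Mmp8 and Mmp27, while for Mmp3 and Mmp10 the lowest WT library falls among the mutant ones.

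The stromelysins split. Mmp11, a stromelysin activated inside the cell by furin and known from stromal fibroblasts, was at 16.5, 51.9 and 51.6 CPM in WT, 5.36, 6.82, 9.57 and 7.20 in PIK3CA mutant, 2.81, 12.9, 8.28 and 8.70 in HER2 mutant and 3.55, 2.41, 3.95, 3.93 and 3.64 in double mutant libraries. All mutant libraries were below all WT libraries. The log2 fold change was -2.47 (SE 0.43, adjusted p = 0.00305) in PIK3CA mutant, -2.29 (SE 0.42, adjusted p = 0.00411) in HER2 mutant and -3.52 (SE 0.41, adjusted p = 0.000198) in double mutant organoids. Mmp11 overlaps Chchd10, which was lower than WT in HER2 mutant organoids by a smaller log2 difference of -0.61 (adjusted p = 0.0162), and the strandedness of the counts is not given in the sources used here.

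Mmp3, a stromelysin of broad substrate range, was at 16.9, 162 and 107 CPM in WT and at 12.2, 3.92, 4.28, 3.79 and 5.21 in double mutant libraries, which did not overlap (log2 fold change -4.01, SE 1.16, adjusted p = 0.0344). This call was lost in 6 of 8 fits that left out 1 library, with a difference of -3.39 without WT replicate 2, and without the 3 libraries that stood apart (adjusted p = 0.106). PIK3CA mutant libraries were at 1.72, 3.49, 3.34 and 41.3 CPM and HER2 mutant libraries at 2.02, 15.2, 0.601 and 43.6. Both groups overlapped WT, and neither difference passed (adjusted p = 0.223 and 0.183). The high values came from PIK3CA mutant replicate 4 and HER2 mutant replicates 2 and 4, the libraries with the highest fibroblast marker sums of their groups (496, 332 and 651 CPM), whose part was not tested. Mmp10, the closest relative of Mmp3 in the run, ranged from 0.717 to 12.9 CPM in WT and from 0.178 to 7.76 in the mutants, and passed in no comparison.

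**Figure D3:**
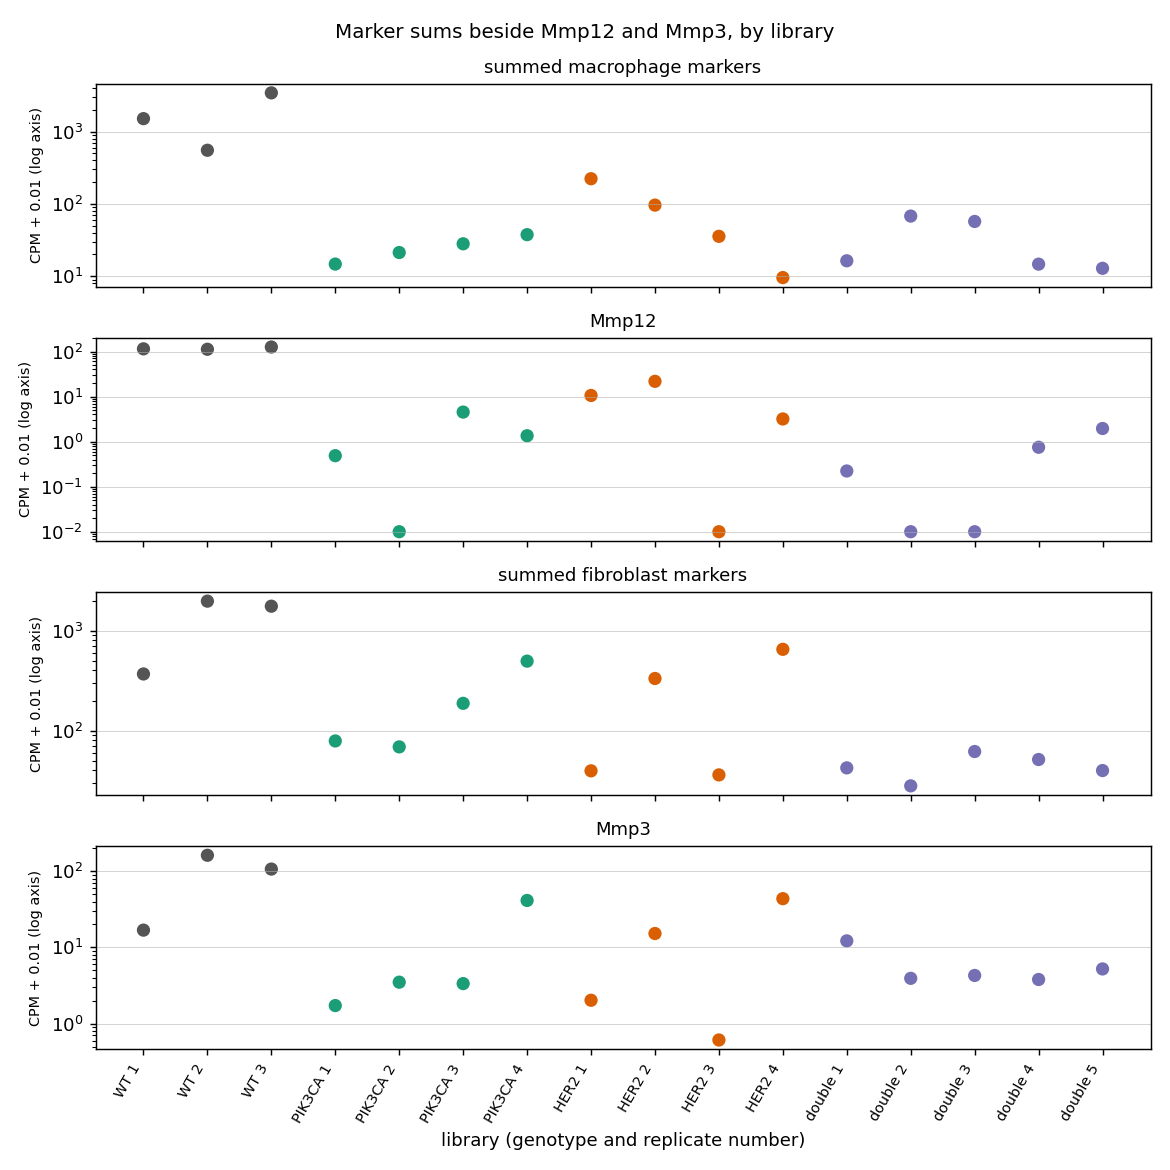
Summed CPM of 12 macrophage markers, Mmp12, summed CPM of 10 fibroblast markers and Mmp3 in each of the 16 libraries, all plus 0.01 on log axes. Macrophage sums and Mmp12 are both highest in WT, and among mutant libraries Mmp3 is highest in HER2 mutant replicate 4 and PIK3CA mutant replicate 4, which also have the highest fibroblast sums.

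The gelatinases cut denatured collagen and collagen of the basement membrane, and only Mmp2 passed in these comparisons. Per kilobase of exon, Mmp2 averaged 73.1 CPM per kb in WT (SD 46.3, n = 3), at 27.2, 119.8 and 72.2 CPM per kb in the 3 libraries, against 49.5, 49.7 and 63.3 for Timp2. Mmp2 was at 91.6, 404 and 243 CPM in WT, 86.7, 32.9, 52.7 and 96.6 in PIK3CA mutant, 14.4, 39.0, 11.1 and 47.3 in HER2 mutant and 22.0, 22.0, 32.6, 27.2 and 26.0 in double mutant libraries. HER2 mutant and double mutant libraries lay below all WT libraries, whereas 1 PIK3CA mutant library exceeded WT replicate 1. It was 8.81-fold lower in HER2 mutant (adjusted p = 0.00239), 9.49-fold lower in double mutant (adjusted p = 0.000621) and 3.66-fold lower in PIK3CA mutant organoids (adjusted p = 0.0471), and the last call was lost in 6 of 7 fits without 1 library. Fibroblast markers were lower in 3, 9 and 1 of 10 cases in the same 3 comparisons, and their part was not tested.

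Mmp9 was at 0.157, 8.60 and 1.38 CPM in WT, 1.35, 0.289, 1.79 and 19.3 in PIK3CA mutant, 5.04, 19.7, 0.935 and 11.1 in HER2 mutant and 0.780, 1.17, 1.14, 1.02 and 0.506 in double mutant libraries. A single library lay far above the others in WT and in PIK3CA mutant. HER2 mutant libraries were spread from 0.935 to 19.7 CPM, and double mutant libraries lay close together. For Mmp9 no comparison passed. The log2 difference from WT was 0.76 in PIK3CA mutant and turned to -1.56 without replicate 4 of that group. In double mutant organoids it was -1.87 and turned to 0.25 without WT replicate 2.

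Membrane-type Mmp genes, whose products are anchored at the cell surface, mostly did not pass. Mmp14, the membrane protease that activates Mmp2, was at 129 to 224 CPM in WT, 196 to 244 in PIK3CA mutant, 26.4 to 267 in HER2 mutant and 174 to 222 in double mutant libraries. The lowest value, 26.4, belonged to HER2 mutant replicate 1, and the groups overlapped. The log2 differences of Mmp14 from WT were 0.28 (SE 0.47), -0.18 (SE 0.46) and 0.13 (SE 0.44), none larger than its standard error. Per kilobase of exon, Mmp14 was at 32.9 to 40.9 CPM per kb in PIK3CA mutant and 29.2 to 37.2 in double mutant libraries. HER2 mutant libraries were at 4.43, 44.7, 39.3 and 20.4 CPM per kb for Mmp14 and at 18.0, 38.9, 38.3 and 12.4 for Timp2, with no constant order.

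Mmp17, which is held by a lipid anchor, was the only membrane-type member to pass against WT in this fit. It was at 4.32, 3.30 and 5.32 CPM in WT, 0.453, 2.54, 1.78 and 1.02 in HER2 mutant and 1.42, 1.07, 2.65, 1.48 and 0.972 in double mutant libraries, with no overlap. The log2 difference was -1.57 (adjusted p = 0.0447) in HER2 mutant and -1.51 (adjusted p = 0.0366) in double mutant organoids, and these calls were lost in 6 of 7 and 6 of 8 fits without 1 library. PIK3CA mutant libraries were at 1.97, 2.54, 2.83 and 4.41 CPM (adjusted p = 0.61). Of the other membrane-type genes, Mmp16 had the log2 differences 1.45, 2.60 and 1.51 and Mmp25 -0.03, 3.67 and 2.89, with no adjusted p below 0.0687. Mmp25 passed the filter on low counts only through libraries with mutant HER2.

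Mmp19, a secreted protease of basement membrane proteins, was at 16.2, 12.9 and 16.7 CPM in WT. PIK3CA mutant libraries were at 1.94, 1.67, 2.88 and 3.63 CPM, HER2 mutant libraries at 2.21, 4.55, 1.96 and 11.3, and double mutant libraries at 2.41, 1.83, 3.08, 1.46 and 1.98. No mutant library reached WT. It was 6.02-fold lower in PIK3CA mutant (adjusted p = 0.00596), 7.08-fold lower in double mutant (adjusted p = 0.00104) and 3.05-fold lower in HER2 mutant organoids (adjusted p = 0.0447), the last call being lost in 6 of 7 fits without 1 library and without the libraries that stood apart (adjusted p = 0.074). Without HER2 mutant replicate 4 its log2 difference went from -1.61 to -2.39. The remaining members Mmp21, Mmp23 and Mmp28 did not pass.

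Among the inhibitors, Timp2 was lower in all 3 mutant genotypes and Timp4 in those with mutant HER2. Timp2, which also takes part in the activation of Mmp2 by Mmp14, was at 193, 193 and 247 CPM in WT, 76.7, 82.9, 57.5 and 82.8 in PIK3CA mutant, 70.2, 151, 149 and 48.4 in HER2 mutant and 58.0, 78.1, 99.7, 76.0 and 75.9 in double mutant libraries. No mutant library reached the WT libraries. It fell by 1.49 on the log2 scale in PIK3CA mutant (SE 0.31, adjusted p = 0.0109), by 1.44 in double mutant (SE 0.29, adjusted p = 0.00453) and by 1.01 in HER2 mutant organoids (SE 0.31, adjusted p = 0.0493). The HER2 mutant call was lost in 5 of 7 fits without 1 library and without the libraries that stood apart (adjusted p = 0.0888), and the PIK3CA mutant call was lost without WT replicate 3.

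Timp4 was at 13.8, 17.6 and 16.3 CPM in WT and 11.7, 13.4, 25.4 and 8.25 in PIK3CA mutant libraries, which overlapped. HER2 mutant libraries were at 0.377, 2.52, 3.69 and 3.95 CPM and double mutant libraries at 2.16, 0.294, 1.32, 3.73 and 4.45, all below every library of the other genotypes. Against WT, Timp4 was 6.05-fold lower in HER2 mutant (adjusted p = 0.032) and 6.65-fold lower in double mutant organoids (adjusted p = 0.0142), and the HER2 mutant call was lost in 4 of 7 fits without 1 library and the double mutant call without WT replicate 3 (adjusted p = 0.0504). Against PIK3CA mutant organoids, the log2 differences of -2.48 in HER2 mutant (adjusted p = 0.0514) and -2.62 in double mutant (adjusted p = 0.0777) did not pass. Timp4 lies within Syn2 (chromosome 6, 115241892 to 115252205 in GRCm38 for Timp4), and Syn2 was also lower, at 101 to 140 CPM in WT, 55.7 to 174 in PIK3CA mutant, 2.26 to 23.0 in HER2 mutant and 5.20 to 28.8 in double mutant libraries. Syn2 differed from WT by -3.11 (adjusted p = 0.00788) and -2.93 (adjusted p = 0.00449) on the log2 scale in the same 2 comparisons, and reads of the overlapping genes cannot be told apart where strand was not used.

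Timp3, the inhibitor bound to the matrix, was at 264, 273 and 245 CPM in WT. It was at 242, 193, 90.6 and 167 CPM in PIK3CA mutant, 12.8, 261, 249 and 71.1 in HER2 mutant and 136, 66.5, 154, 149 and 175 in double mutant libraries. PIK3CA mutant and double mutant libraries did not overlap WT, yet the log2 differences of -0.59, -0.81 and -0.94 did not pass (adjusted p = 0.709, 0.454 and 0.337). Timp1 was at 4.68, 13.4 and 11.5 CPM in WT and between 3.38 and 17.9 in the mutants, with no difference that passed.

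**Figure D4:**
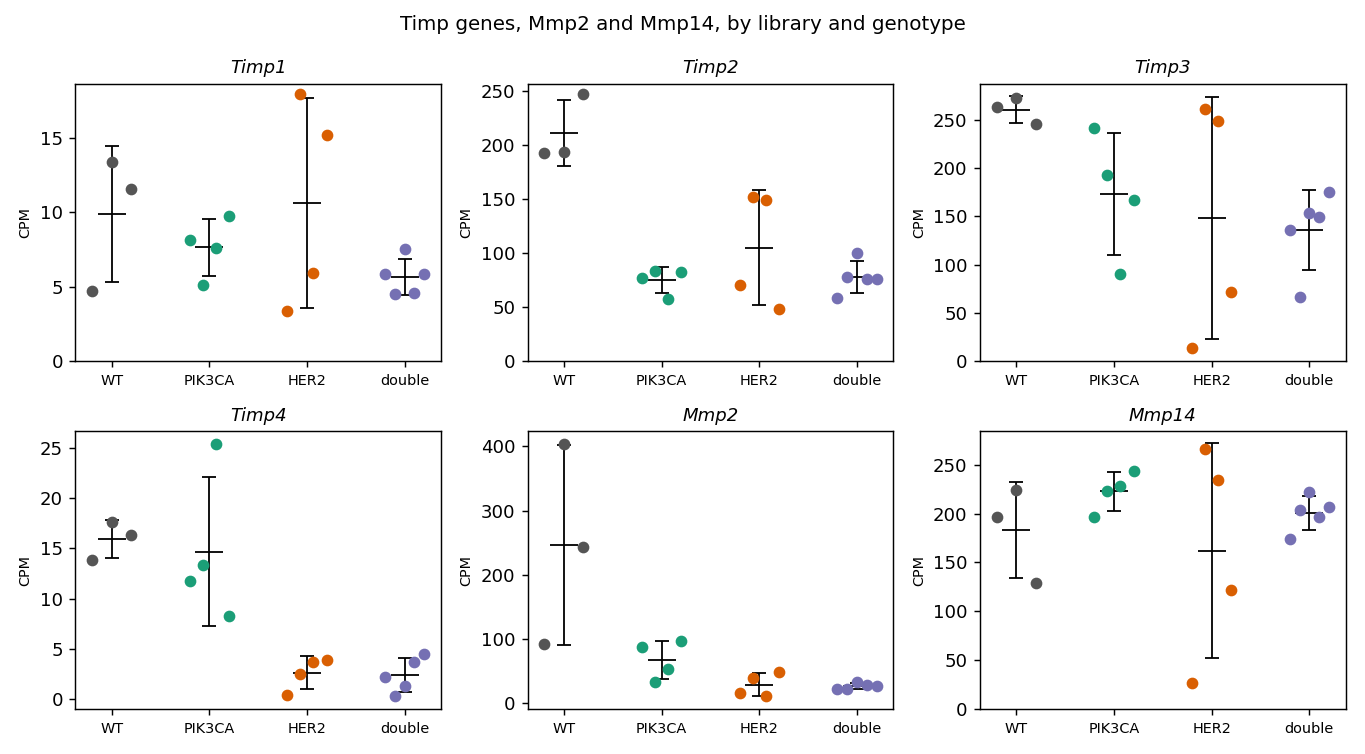
CPM of Timp1, Timp2, Timp3, Timp4, Mmp2 and Mmp14 in each library (points) by genotype, with the mean and SD. Timp2 and Mmp2 are highest in WT, Timp4 is low in both genotypes with mutant HER2, and Mmp14 overlaps across genotypes.

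Summed per kilobase of exon, Mmp genes came to 128 to 376 CPM per kb in WT, 88.4 to 138 in PIK3CA mutant, 34.3 to 122 in HER2 mutant and 62.8 to 84.1 in double mutant libraries. Timp genes summed to 89.5 to 109 CPM per kb in WT, 38.8 to 60.5 in PIK3CA mutant, 23.5 to 91.5 in HER2 mutant and 33.4 to 53.2 in double mutant libraries. The ratio of Timp to Mmp RNA overlapped between genotypes, at 0.269 to 0.701 in WT, 0.393 to 0.627 in PIK3CA mutant, 0.406 to 1.07 in HER2 mutant and 0.531 to 0.632 in double mutant libraries. Adamts sums also overlapped, at 27.9 to 37.5, 32.8 to 37.4, 23.4 to 51.7 and 37.6 to 72.3 CPM per kb in the same order.

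Adamts genes moved in both directions. Adamts7 (chromosome 9, 90163069 to 90208071 in GRCm38), a protease of cartilage oligomeric matrix protein (Comp), was high only in HER2 mutant organoids. It was at 9.79, 14.6 and 10.9 CPM in WT, 13.1, 13.6, 15.5 and 11.9 in PIK3CA mutant, 41.1, 57.2, 27.3 and 58.0 in HER2 mutant and 18.2, 9.25, 13.2, 14.8 and 14.0 in double mutant libraries. Every HER2 mutant library was above every library of the other genotypes, and the other genotypes overlapped. HER2 mutant organoids were 3.90-fold above WT (log2 1.96, SE 0.27, adjusted p = 0.000757) and 3.39-fold above PIK3CA mutant organoids (log2 1.76, SE 0.24, adjusted p = 0.0012). Double mutant organoids were 3.31-fold below HER2 mutant organoids (log2 -1.72, SE 0.22, adjusted p = 0.0014). Double mutant and PIK3CA mutant organoids differed by 0.04 (SE 0.22, adjusted p = 0.97).

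The interaction asks how far the double mutant departs from adding up both single-mutant log2 changes. It was -1.93 for Adamts7 (SE 0.34, adjusted p = 0.0151). Adamts7 was the only one of 40 members to pass it (0 higher, 1 lower), where 1.06% of all genes passed, 0.515% higher and 0.544% lower. It did not pass without WT replicate 1 (adjusted p = 0.0506) or WT replicate 3 (adjusted p = 0.0652). Adamts7 was also the only member called between HER2 mutant and PIK3CA mutant organoids, where 4.41% of all genes passed, 2.21% higher and 2.2% lower, and without the 3 libraries that stood apart there were 3 in each of these comparisons. Leaving out HER2 mutant replicate 1, 2 or 3 gave 2, 3 and 2 members between HER2 mutant and PIK3CA mutant organoids. The interaction had 0 members without WT replicate 3, 4 without HER2 mutant replicate 2, and 2 without HER2 mutant replicate 1, HER2 mutant replicate 4 or double mutant replicate 2. Tbc1d2b, which overlaps Adamts7, was at -0.74 in HER2 mutant organoids relative to WT (adjusted p = 0.0864), opposite in sign. Comp itself was lower than WT in all 3 mutants, by -5.16, -4.34 and -4.32 on the log2 scale (adjusted p = 0.00123, 0.00219 and 0.000629), and by -4.44, -3.62 and -3.61 without WT replicate 2. Adamts12, the other protease of Comp, did not pass.

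Adamts9, which cuts versican and aggrecan, was at 2.45, 7.40 and 4.87 CPM in WT, 14.1, 16.1, 14.8 and 12.7 in PIK3CA mutant, 35.8, 9.54, 12.2 and 39.1 in HER2 mutant and 15.2, 11.5, 15.6, 20.4 and 20.5 in double mutant libraries. All mutant libraries were above all WT libraries. It was 4.93-fold higher in HER2 mutant (adjusted p = 0.00732) and 3.39-fold higher in double mutant organoids (adjusted p = 0.0183), and the log2 difference of 1.56 in PIK3CA mutant did not pass (adjusted p = 0.0685). The double mutant call was lost without WT replicate 1 or WT replicate 3. Gm15737, a gene overlapping Adamts9, was at 0.122 to 2.58 CPM in all libraries and higher in HER2 mutant organoids by 2.37 on the log2 scale (adjusted p = 0.0347). The other 6 proteoglycan-cleaving members did not pass against WT. Among them, Adamts1 was at 27.9 to 31.4 CPM in WT, 0.604 in HER2 mutant replicate 1, and 234 and 261 in double mutant replicates 2 and 3 against 48.4 to 80.1 in the other double mutant libraries. Between double mutant and WT organoids its log2 difference was 2.23 (adjusted p = 0.127), and without those 3 libraries it was 1.20 (adjusted p = 0.0486). Those libraries were set apart after seeing values such as these, so the fit without them is not a test of Adamts1.

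The procollagen N-propeptidases, which trim fibrillar procollagens, went opposite ways. Adamts2 was at 12.1, 28.1 and 50.8 CPM in WT, 0.159, 0.0413, 0.642 and 3.11 in PIK3CA mutant, 0.924, 5.05, 0.289 and 3.73 in HER2 mutant and 0.355, 0.189, 0.275, 0.240 and 0.0778 in double mutant libraries. No mutant library reached WT, and the log2 fold change was -4.93 (SE 1.09, adjusted p = 0.0148), -3.60 (SE 1.02, adjusted p = 0.0361) and -7.04 (SE 1.10, adjusted p = 0.00079). The HER2 mutant call was lost in 5 of 7 fits without 1 library and without the libraries that stood apart (adjusted p = 0.0675), and the PIK3CA mutant call in 2 of 7. Without WT replicate 3 the differences were -4.34, -3.01 and -6.45. Without PIK3CA mutant replicate 4 that of the PIK3CA mutant was -6.77, and without HER2 mutant replicate 2 that of the HER2 mutant was -4.20. Fibroblast markers moved the same way in the counts given with Mmp2, and their part was not tested.

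Adamts3, which also matures a vascular growth factor, was at 12.9, 17.7 and 8.68 CPM in WT and 50.9, 23.3, 27.0, 39.6 and 43.5 in double mutant libraries, with no overlap (2.81-fold higher, adjusted p = 0.0274). PIK3CA mutant libraries were at 40.2, 37.7, 36.0 and 29.7 CPM, also all above WT, with a log2 difference of 1.46 that did not pass (adjusted p = 0.0657). HER2 mutant libraries were at 33.6, 11.4, 15.3 and 48.4 CPM and overlapped WT (log2 1.05, adjusted p = 0.123). The double mutant call was lost without WT replicate 1 or WT replicate 3. Adamts14, the remaining member of this group, was at 0.118 to 6.33 CPM and did not pass.

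Adamts17 and Adamts6 belong to a branch of the family known for roles with fibrillin microfibrils. Adamts17 was at 20.6, 17.1 and 7.91 CPM in WT, 3.08, 3.62, 3.23 and 2.88 in PIK3CA mutant, 1.96, 1.08, 1.45 and 4.89 in HER2 mutant and 1.67, 1.72, 2.92, 0.905 and 0.992 in double mutant libraries. All mutant libraries were below all WT libraries. It was 4.74-fold lower in PIK3CA mutant (adjusted p = 0.0137), 6.48-fold lower in HER2 mutant (adjusted p = 0.00386) and 9.25-fold lower in double mutant organoids (adjusted p = 0.000484). The PIK3CA mutant call was lost without WT replicate 1, and without HER2 mutant replicate 4 the HER2 mutant log2 difference went from -2.70 to -3.34.

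Adamts6 was at 1.40, 3.46 and 2.02 CPM in WT, 0.509, 0.620, 1.06 and 1.27 in PIK3CA mutant, 0.868, 6.05, 1.31 and 3.68 in HER2 mutant and 0.408, 0.482, 0.255, 0.388 and 0.564 in double mutant libraries. Double mutant libraries lay below every WT and HER2 mutant library. It was 5.44-fold lower in double mutant organoids than in WT (adjusted p = 0.0071) and 7.08-fold lower than in HER2 mutant organoids (adjusted p = 0.0104), where the log2 difference went from -2.82 to -2.21 without HER2 mutant replicate 2. The PIK3CA mutant difference from WT of -1.40 (adjusted p = 0.193) and that of the double mutant from the PIK3CA mutant of -1.04 (adjusted p = 0.422) did not pass.

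**Figure D5:**
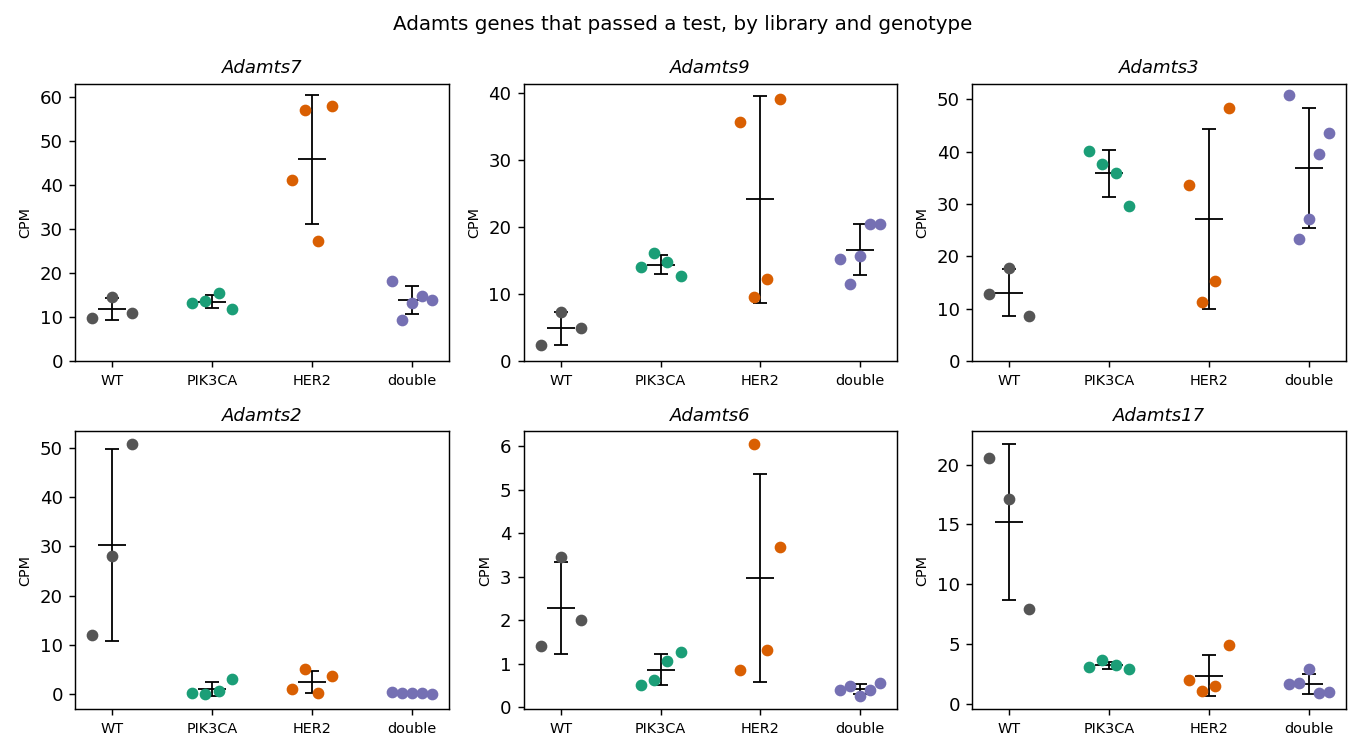
CPM of Adamts7, Adamts9, Adamts3, Adamts2, Adamts6 and Adamts17 in each library (points) by genotype, with the mean and SD. Adamts7 is high in the HER2 mutant alone, Adamts9 is lowest in WT, and Adamts2 and Adamts17 are highest in WT.

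Between the mutant genotypes few members passed. Double mutant and HER2 mutant organoids differed in Adamts6 and Adamts7, both lower in the double mutant, which made 2 of 40 members where 2.5% of all genes passed and 1.47% were lower. These were also the 2 members whose groups did not overlap, against 4.59% of all genes. Without the 3 libraries that stood apart there were 4, with Mmp11 and Mmp24 added, and without HER2 mutant replicate 3 there were also 4. Double mutant and PIK3CA mutant organoids differed in 0 members by edgeR, where 0.672% of all genes passed (0.363% lower), with 11 of 40 members at an unadjusted p under 0.05, against 12.4% of all genes. Groups did not overlap in 7 of 40 members there, against 7.92% of all genes. DESeq2 called 2 members in that comparison, Adamts4 and Timp4.

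Members varied within genotypes in the order of single libraries. WT replicate 1 was the lowest WT library in 25 of the 40 tested members, while it was the lowest in 33.5% of all genes. WT replicate 2 was the highest in 23 of 40, against 37.1% of all genes. WT replicate 1 had a fibroblast marker sum of 369 CPM, against 1977 and 1760 in the other WT libraries. HER2 mutant replicates 2 and 4 were the highest of their group in 16 and 15 of 39 members, against 24.4% and 25% of all genes.

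Of 54 other genes of the system, chosen as activators, other inhibitors, ADAM and ADAMTS-like proteins and substrates, 52 were tested. The numbers higher and lower than WT were 2 and 4 in PIK3CA mutant, 3 and 8 in HER2 mutant and 2 and 12 in double mutant organoids, where 4.52%, 10.4% and 11.8% of all genes passed. Of the 46 calls made over all comparisons, 23 were kept in every fit without 1 library. Reck, a membrane-anchored inhibitor of Mmp enzymes, was at 71.7 to 76.2 CPM in WT, 36.3 to 49.8 in PIK3CA mutant, 20.3 to 22.9 in HER2 mutant and 19.3 to 37.0 in double mutant libraries. All mutant libraries were below WT, and Reck fell by 0.81, 1.77 and 1.65 on the log2 scale (adjusted p = 0.0247, 0.000218 and 0.000165), the PIK3CA mutant call being lost in 6 of 7 fits without 1 library. It was also lower in HER2 mutant (log2 -0.96, adjusted p = 0.00938) and double mutant (-0.84, adjusted p = 0.0399) than in PIK3CA mutant organoids, the latter call being lost in 8 of 9.

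Among activators, Pcsk6, a proprotein convertase, was higher than WT in all 3 mutants, by 1.89, 3.36 and 2.55 on the log2 scale (adjusted p = 0.0209, 0.000891 and 0.00169), with an interaction of -2.71 (adjusted p = 0.0338). The PIK3CA mutant call was lost in 4 of 7 fits without 1 library and the interaction in 7 of 16. Without WT replicate 2 the 4 values were 2.81, 4.28, 3.47 and -3.63. Substrates included the proteoglycans aggrecan (Acan, 2.85 in PIK3CA mutant, adjusted p = 0.0462), versican (Vcan, 1.82 in HER2 mutant, adjusted p = 0.0224) and brevican (Bcan, 3.10 in double mutant, adjusted p = 0.034), each higher than WT on the log2 scale. These calls were lost in 6 of 7, 3 of 7 and 5 of 8 fits without 1 library. Without WT replicate 2 the difference of Acan was 3.56. Bcan was at 8.69 and 3.77 CPM in double mutant replicates 2 and 3 and at 0.831 to 0.992 in the other 3, and its difference was 2.19 without replicate 2 (adjusted p = 0.0776) and 1.34 without the 3 libraries that stood apart (adjusted p = 0.197). The collagens Col3a1 and Col1a1 were lower in double mutant organoids by -10.23 and -5.32 (adjusted p = 0.00227 and 0.00434), and both are among the fibroblast markers. Without double mutant replicate 2 the difference of Col3a1 was -11.04. Adam8, a membrane protease of leukocytes, was lower in PIK3CA mutant organoids (-3.24, adjusted p = 0.00251, and -2.50 without WT replicate 3), and Adamtsl3, an ADAMTS-like protein without protease activity, in HER2 mutant organoids (-4.35, adjusted p = 0.00232). Neither was particular to that genotype. Adam8 was also lower in double mutant organoids (adjusted p = 0.00891), and Adamtsl3 in PIK3CA mutant (adjusted p = 0.0156) and double mutant organoids (adjusted p = 0.00447).

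Between the mutants, 2 of these genes were higher and 3 lower in double mutant than in HER2 mutant organoids, where 2.5% of all genes passed. The protease inhibitors Cst3 (log2 1.49, adjusted p = 0.0192) and Serpinb5 (0.94, adjusted p = 0.00678) were higher, and Col3a1 (-6.55, adjusted p = 0.0493) and Adam33 (-2.84, adjusted p = 0.0367) had the most negative differences. The Col3a1 and Adam33 calls were lost in 7 and 5 of 9 fits without 1 library and without the 3 libraries that stood apart (adjusted p = 0.0562 and 0.0542). Col3a1 was at -5.67 without HER2 mutant replicate 4 and -7.36 without double mutant replicate 2, and Adam33 at -1.77 without HER2 mutant replicate 4 and -3.45 without double mutant replicate 1. HER2 mutant organoids had 3 genes higher and 2 lower than PIK3CA mutant organoids, where 4.41% of all genes passed, with Adam8 (1.86, adjusted p = 0.0454) and Pzp, an inhibitor that traps proteases (1.74, adjusted p = 0.0489), higher and Serpinb5 (-0.95, adjusted p = 0.00528) lower beside Reck. The Adam8 and Pzp calls were lost in 7 and 6 of 8 fits without 1 library. Reck was the only 1 of the 52 to pass between double mutant and PIK3CA mutant organoids, where 0.672% of all genes passed. The interaction passed in 3 genes with a positive value, where 1.06% of all genes passed in either direction, led by Comp (5.17, adjusted p = 0.0158) and Adamtsl3 (4.29, adjusted p = 0.0392), and in Pcsk6 with a negative one. That of Adamtsl3 was lost in 10 of 16 fits without 1 library, and that of Comp was 4.45 without WT replicate 2 and 5.90 without PIK3CA mutant replicate 3.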

How the data were processed

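RNA sequencing libraries were made with a SMARTer mRNA-seq kit from 1.3 ug of total RNA, per the labels' protocols. The authors deposited a table of raw counts by Ensembl identifier, in whole numbers, with a column for each of the 16 samples. The submitters' processing notes name bcl2fastq 2.20, STAR 2.0.4b, Subread, featureCounts 1.4.5, DESeq2 1.33.5 and build mm10, with no role or order. After 287 repeated entries were dropped from 55774, 55487 gene identifiers remained, of which 55141 matched GENCODE M21 (GRCm38), the source of positions and exon lengths. In that annotation 13 members overlap a protein-coding gene.

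Counts were filtered with filterByExpr, scaled with TMM and tested with edgeR 4.0.16 (R 4.3.3, glmQLFTest, two-sided) in a single fit of all 16 samples by genotype. Comparisons were the 6 pairs and the interaction, with Benjamini-Hochberg adjustment over all 24252 genes tested and a threshold of 0.05. SE is the absolute log2 fold change over the square root of F. CPM uses TMM library sizes, and CPM per kb divides by union exon length. The model was tested on simulated data. Members, lists and tests were chosen with earlier results of these data known. Members named by sample are those passing in at least 1 comparison, the 4 Timp genes, Mmp2 and Mmp9. Of the other genes of the system, those named come from the 2 called genes that rose most and the 2 that fell most in each comparison. Reck is given in every comparison it passed, and Adam8 and Adamtsl3 in every comparison with WT they passed. Alternatives were other scalings, DESeq2 1.42.0, no filter, a replicate block, fits of 2 genotypes and leaving out libraries. Normalized values deposited beside the counts were not used here.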

Additional observations from a re-analysis of the deposited data

Results flagged for a closer look

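Among the 20 members named by rule, 60 groups of 4 or 5 libraries were checked for a single library far from the others, and 8 were found. The rule flags about 1 in 20 groups of independent, normally distributed values. That rate does not hold for skewed CPM of genes read in the same libraries, so the 8 are not compared with it. PIK3CA mutant replicate 4 stood high for Mmp3, at 41.3 CPM against 1.72 to 3.49 in the other libraries of its group, and for Mmp9, at 19.3 CPM against 0.289 to 1.79. Its fibroblast marker sum was 496 CPM, against 68.7 to 188 in the other PIK3CA mutant libraries, and the part of this in both values was not tested. HER2 mutant replicate 2 stood high for Mmp13, at 9.33 CPM against 1.11 to 1.45, and for Mmp8, at 2.62 CPM against 0.0223 to 0.113. HER2 mutant replicate 1 held all reads of Mmp27 in its group, at 0.226 CPM, and its macrophage marker sum of 223 CPM was the highest of the mutant libraries. In double mutant organoids, Mmp11 was low in replicate 2, at 2.41 CPM against 3.55 to 3.95, Mmp27 was high in replicate 3, at 0.137 CPM against 0 to 0.0389, and Mmp3 was high in replicate 1, at 12.2 CPM against 3.79 to 5.21.

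For Adamts7, the difference of HER2 mutant from WT organoids and that of double from PIK3CA mutant organoids were unequal, with an interaction of -1.93 on the log2 scale (edgeR adjusted p = 0.0151). It did not pass without WT replicate 1 (adjusted p = 0.0506), without WT replicate 3 (adjusted p = 0.0652) or with the replicate block (adjusted p = 0.0828), and genotype and tissue source cannot be told apart in its WT term. All 4 HER2 mutant libraries were above all 5 double mutant libraries.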

How the results depend on the processing

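Of 43 calls of a member in a comparison, 17 were kept in every fit run, 6 were kept in every fit without 1 library but lost under another setting, and 0 changed direction. Median-of-ratios scaling, DESeq2 and no filter lost 0 of the 43, upper-quartile scaling lost 4, and leaving out the 3 libraries that stood apart, chosen after seeing the data, lost 4. In fits of only the 2 genotypes compared, counts of members called went from 10 to 17 in PIK3CA mutant against WT, from 13 to 1 (Adamts7) in HER2 mutant against WT, from 2 to 1 in double against HER2 mutant and from 0 to 3 in double against PIK3CA mutant. DESeq2 called 5 in double against HER2 mutant, 2 in double against PIK3CA mutant, 4 in HER2 against PIK3CA mutant and 4 in the interaction. Without the filter, HER2 against PIK3CA mutant and the interaction each had 2. Without the 3 libraries that stood apart there were 4, 1, 3 and 3 in double against HER2 mutant, double against PIK3CA mutant, HER2 against PIK3CA mutant and the interaction. Shares of all genes in these refits are not given, so changes in count may not be particular to the members.

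Leaving out 1 library gave 5 to 9 members in PIK3CA mutant, 6 to 14 in HER2 mutant and 10 to 15 in double mutant against WT, each lowest without WT replicate 3. HER2 mutant against WT also fell to 8 without WT replicate 1 or 2. The range was 2 to 4 in double against HER2 mutant, 0 to 0 in double against PIK3CA mutant, 1 to 3 in HER2 against PIK3CA mutant and 0 to 4 in the interaction, lowest without WT replicate 3 and highest without HER2 mutant replicate 2. The cause was not tested.

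In no comparison did every pair of samples with the same replicate number have a correlation of deviations over 0.1. The correlations were 0.0711 to 0.273 in double against HER2 mutant, where 2 of 4 samples correlated best with their own number, and 0.039 to 0.0455 in PIK3CA mutant against WT, and the other comparisons each had pairs below 0. With replicate number as a block, members called were 7, 10 and 11 in PIK3CA, HER2 and double mutant against WT, and the interaction had 0, its Adamts7 value being -1.88 (adjusted p = 0.0828). The block lost 12 of the 43 calls.

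Refits of single members covered the calls and the Timp genes, Mmp2 and Mmp9 against WT, and among these a value that did not pass turned in sign 7 times. Other members that did not pass were not followed singly. Timp1 in HER2 mutant against WT went from 0.10 to -0.023 with the replicate block, -0.23 without WT replicate 1, -0.27 without HER2 mutant replicate 2 and -0.12 without HER2 mutant replicate 4, within a range of -0.27 to 0.40 over fits without 1 library. Mmp9 went from -1.87 to 0.25 in double mutant against WT without WT replicate 2 (range -2.43 to 0.25), and from 0.76 to -1.56 in PIK3CA mutant against WT without PIK3CA mutant replicate 4 (range -1.56 to 2.88). Without that library Timp4 in PIK3CA mutant against WT went from -0.12 to 0.078 (range -0.52 to 0.078). Group sizes of 3 to 5 and the spread among WT libraries limit what can be detected, and for Mmp27 the 3 to 12 reads of a mutant genotype limit the precision of the ratio.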
